A study of Mus musculus with 6 samples.

Results

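The genes described here are 9 members of the melanoma antigen (MAGE) family, found by Ensembl ID among the 22274 genes of a count table made from whole mouse testes labelled day 9. They fall into 2 classes by prior knowledge. Magea5, Magea8 and Mageb4 form the germline class of 3 genes, and Maged1, Maged2, Magee1, Mageh1, Magel2 and Ndn form the broadly expressed class of 6. All 9 had at least 21 counts in each library and passed the filter on low counts. The group written cKO comprises 3 libraries from mice with a conditional knockout of Dcaf2 in germ cells, made by crossing a floxed Dcaf2 allele with Stra8-Cre, a Cre recombinase expressed in spermatogonia. The other group, Control, comprises 3 libraries labelled control, and the labels do not state which of the alleles these mice carried. DCAF2 is the substrate receptor of a CRL4 ubiquitin ligase, and the study asked whether it is needed for spermatogenesis. Stra8-Cre is known to act in germ cells, so somatic cells of the same testes are not its target. Nothing in the labels tells separate animals from repeat libraries of 1 animal, and the p-values below therefore describe variation among libraries that may be technical.

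MAGE proteins share a MAGE homology domain through which many of them bind RING-type ubiquitin ligases and alter where those ligases act or what they modify. The MAGE-A and MAGE-B genes lie mostly on the X chromosome, are expressed in germ cells of the testis and are known as cancer-testis antigens because tumours can switch them on. The MAGE-D, -E, -H and -L genes and necdin (Ndn) are expressed in many tissues, nervous tissue among them, and Ndn and Magel2 are imprinted genes of the Prader-Willi region that are expressed from the paternal copy.

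The sequence just upstream of the start is shown for the 3 germline genes, which moved together, and for Maged1, the most abundant of the broad class, because promoter methylation at CG pairs is known to silence human MAGE-A genes in somatic tissue. Each is the 250 bases before a RefSeq transcript start in build GRCm38.p6, written 5′ to 3′ on the gene's strand, which is the minus strand for all 4, with CG pairs in capitals. They lie at chrX:155061554-155061803 for Magea5, chrX:154995851-154996100 for Magea8, chrX:86256220-86256469 for Mageb4 and chrX:94542026-94542275 for Maged1.
Magea5: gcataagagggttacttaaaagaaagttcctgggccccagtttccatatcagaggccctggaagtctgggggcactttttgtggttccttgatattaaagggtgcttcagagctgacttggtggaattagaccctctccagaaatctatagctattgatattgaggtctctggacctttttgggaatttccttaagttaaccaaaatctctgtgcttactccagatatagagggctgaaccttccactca
Magea8: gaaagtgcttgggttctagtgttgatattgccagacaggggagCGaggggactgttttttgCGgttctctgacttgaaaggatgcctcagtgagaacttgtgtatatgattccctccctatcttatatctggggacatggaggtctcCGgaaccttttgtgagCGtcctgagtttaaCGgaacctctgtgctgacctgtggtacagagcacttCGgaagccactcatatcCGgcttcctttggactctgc
Mageb4: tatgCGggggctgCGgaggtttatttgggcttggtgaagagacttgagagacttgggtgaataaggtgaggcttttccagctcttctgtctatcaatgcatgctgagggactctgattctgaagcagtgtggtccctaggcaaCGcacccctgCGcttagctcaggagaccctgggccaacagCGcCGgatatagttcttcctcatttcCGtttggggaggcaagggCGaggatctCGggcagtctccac
Maged1: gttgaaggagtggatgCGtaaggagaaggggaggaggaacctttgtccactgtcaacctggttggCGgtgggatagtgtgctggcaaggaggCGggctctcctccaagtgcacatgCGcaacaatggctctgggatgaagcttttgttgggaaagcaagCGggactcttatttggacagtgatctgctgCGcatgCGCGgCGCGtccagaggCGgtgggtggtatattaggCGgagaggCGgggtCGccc

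The Magea5 window held 0 CG pairs, the Magea8 window 7, the Mageb4 window 9 and the Maged1 window 14. CG reads the same on both strands. Over 32817 such windows of all genes in the RefSeq table the median was 6, with quartiles of 2 and 16, and 7.87% held none. The other members ranged from 5 in Ndn to 16 in 2 of the 4 listed Maged2 windows. The 3 germline windows thus lay on both sides of the median, from the lowest possible count upward, and no methylation was measured here.

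The cKO libraries held 15407007 to 17564942 counts and the Control libraries 16097362 to 18372964. Levels are given as CPM, the count divided by the scaled library size. All 24 markers of germ cells in general (the pan-germ-cell list, such as Mael and Tdrkh) were measurable, as a testis label calls for. So were all 16 Sertoli cell markers, such as Kitl and Fshr. Dtl, the current symbol of Dcaf2, had 41.7, 43.8 and 51.5 CPM in cKO testes, against 42.6, 50.3 and 77.4 CPM in Control testes. The groups overlapped, and the log2 fold change of Dtl was -0.31 (SE 0.202, edgeR adjusted p = 0.281). Without Control library 1 it was -0.51 (edgeR adjusted p = 0.0314), but without Control library 3 it was -0.02 (adjusted p = 0.922). With any other library left out it was -0.41 to -0.25 and not called (adjusted p of 0.207 to 0.522). The count covers the whole gene, deleted exons or not, and does not measure their loss. Of all 14424 tested genes, 13.9% were called lower and 11.1% higher in cKO testes (edgeR quasi-likelihood test, Benjamini-Hochberg adjusted p under 0.05). Total-count scaling gave 1109 higher and 2424 lower genes, where the scaling used here gave 1599 and 2008.

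The 3 germline MAGE genes were all lower in cKO testes, each by 2.37-fold to 2.52-fold, while the share of all tested genes called lower was 13.9%. The groups did not overlap for any of the 3, which was true of 44.6% of all tested genes. Mageb4, a MAGE-B gene known from germ cells, is the most abundant of the 3 and had 69.1, 60.4 and 83.1 CPM in cKO testes, against 156, 183 and 196 CPM in Control testes. Every cKO library was thus below the lowest Control library. Mean levels were 70.9 ± 11.4 CPM in cKO and 178 ± 20.3 CPM in Control testes (SD, n = 3 each). On the log2 scale this difference was -1.33 (SE 0.139, edgeR adjusted p = 0.000639).

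Magea8, a MAGE-A gene, had 5.40, 4.70 and 5.05 CPM in cKO testes, against 11.6, 13.6 and 11.2 CPM in Control testes. The cKO libraries lay within 1 CPM of each other and well under the Control libraries. The log2 fold change was -1.26 (SE 0.158, edgeR adjusted p = 0.00149). Magea5, its close relative, had 3.38, 4.11 and 2.86 CPM in cKO testes, against 7.28, 7.97 and 9.44 CPM in Control testes. Here too the highest cKO library was under the lowest Control library, and the log2 fold change was -1.25 (SE 0.205, edgeR adjusted p = 0.00408). With any 1 library left out, all 3 genes stayed past the threshold, with log2 fold changes of -1.46 to -1.23 for Mageb4, -1.32 to -1.18 for Magea8 and -1.40 to -1.13 for Magea5. Their 95% intervals overlapped each other widely (-1.64 to -1.02, -1.62 to -0.91 and -1.71 to -0.78), and no difference between the 3 genes was tested.

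**Figure D1:**
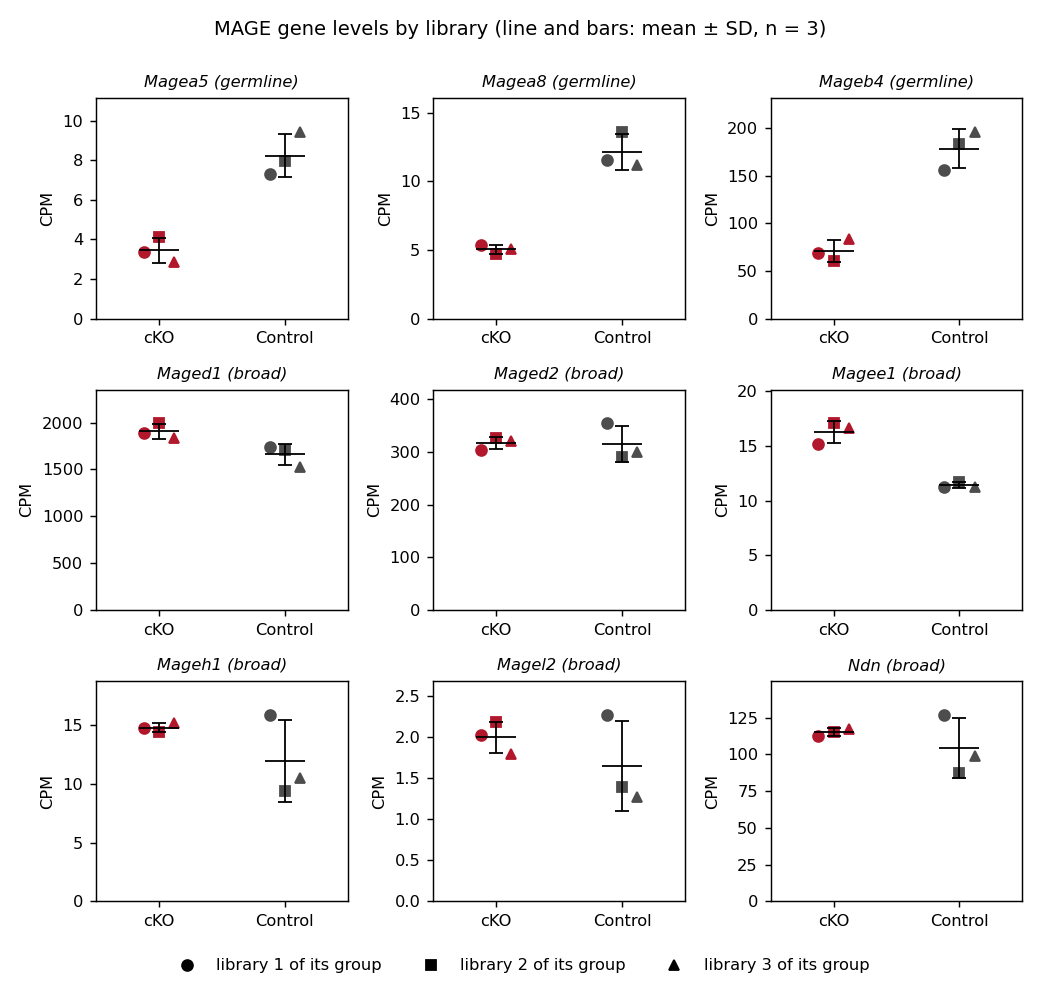
Level of each MAGE gene in CPM (vertical axis, starting at 0 in every panel) in the cKO (left, red) and Control (right, grey) libraries; each point is 1 library, and the line with bars is the mean ± SD of 3. The 3 germline genes in the top row separate completely by genotype, as do Maged1 and Magee1 in the other direction. Such separation was true of 44.6% of all tested genes. Control library 1 (circle) stands above the other 2 Control libraries for 5 of the 6 broad genes, Mageh1, Magel2 and Ndn among them.

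Counts of the germline genes are partly ambiguous, because near-identical copies exist. In GENCODE M21 transcripts, 46.2% of the 50-base stretches of Magea5 also occur in other genes, 34.6% in Magea8. For Magea8 the share was 41.5%, with 34.6% in Magea5. For Mageb4 it was 50.1%, all in the pseudogene Mageb10-ps, which was not analysed here. At 100 bases these shares were 24.6%, 21.4% and 40.5%. Maged1, Magee1, Mageh1, Magel2 and Ndn had 0 shared stretches at both lengths, and Maged2 shared 1.49% at 50 bases with Tro. Neither the read length nor the way the authors' counting divided such reads is given in the sources used here.

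Markers of germ cells in general fell alongside the germline MAGE genes. Summed over the 24 pan-germ-cell markers, the level was 878, 796 and 989 CPM in cKO testes, against 1992, 2793 and 2678 CPM in Control testes. All 24 were called lower, where 13.9% of all tested genes were. Their median log2 fold change was -1.38, beside 0.03 for all tested genes. This list was chosen with earlier results of these data known. In a bulk sample, fewer germ cells and less RNA per germ cell cannot be told apart. Scaling the libraries on the pan-germ-cell genes instead of all genes moved the median of all genes up by 1.40 on the log2 scale, and 0 of the 3 germline MAGE genes passed the threshold. Relative to these markers Mageb4 differed by 0.08 (95% interval -0.25 to 0.41, edgeR adjusted p = 0.63), Magea8 by 0.15 (-0.34 to 0.64, adjusted p = 0.534) and Magea5 by 0.18 (-0.40 to 0.76, adjusted p = 0.524). These intervals still leave room for differences from the markers of up to 0.76 on the log2 scale in the case of Magea5. They also take the scaling on 24 genes as exact and leave out the spread among those genes. With libraries scaled over all genes, the 24 markers ran from -2.24 (Nanos3) to -0.91 (Exd1). The intervals and p-values thus make the match look firmer than it is.

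The same can be read from levels. The Mageb4 level amounted to 7.87%, 7.59% and 8.40% of the summed pan-germ-cell markers in cKO testes, against 7.83%, 6.55% and 7.31% in Control testes, and the groups overlapped. The Magea8 level amounted to 0.572% ± 0.0547 of that sum in cKO testes and 0.495% ± 0.0817 in Control testes (SD, n = 3 each). For Magea5 the values were 0.397% ± 0.114 in cKO and 0.334% ± 0.0430 in Control testes. The medians of later germ cell markers lay below the values of these 3 genes. They were -1.78 over 12 differentiating spermatogonia genes (11 lower, 1 higher) and -1.68 over 20 tested genes of meiotic entry and prophase (17 lower, 0 higher). Not every marker fell further than the 3 genes, since Dmrt1 was at -0.53, Rec8 at -1.06 and Ccnd2 at 0.77. These exceptions are named after their values were seen. In which cells Dmrt1 and Ccnd2 were transcribed was not measured, so their values need not reflect differentiating spermatogonia. Dmrtb1, a regulator of the switch from spermatogonial division to meiosis, was at -4.51 (SE 0.198, edgeR adjusted p = 3.89e-05), and Sycp3, of the synaptonemal complex, at -2.15 (SE 0.129, adjusted p = 0.000104). Among 18 markers of undifferentiated spermatogonia the median was -0.24, with 6 lower, 2 higher and 10 not called. Of all tested genes 13.9% were lower and 11.1% higher. The median hides a split list, whose genes are named after their values were seen. Its 6 lower genes ran from -2.62 (Upp1) to -1.20 (Sall4), with Sox3 at -2.45, while Lhx1 was at 1.05 and Etv5 at 0.33. Whether the MAGE genes differ from any of these lists was not tested.

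**Figure D2:**
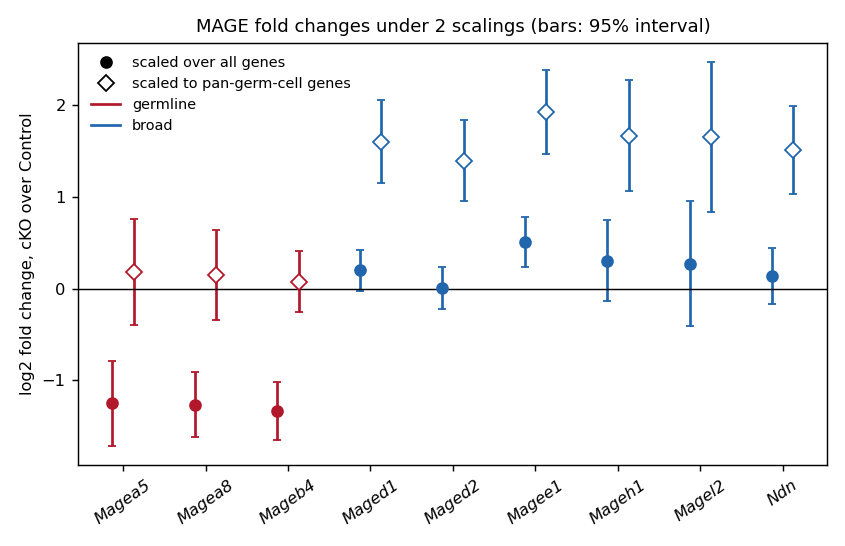
Log2 fold change of cKO over Control for each MAGE gene (vertical axis, bars are 95% intervals), with libraries scaled over all genes (filled circles) and to the pan-germ-cell genes (open diamonds), the germline genes in red and the broad genes in blue. The germline genes lie near -1.3 in the first scaling and near 0 in the second, and the broad genes lie near 0 or above it in the first and between 1.40 and 1.93 in the second, where the median of all genes is 1.43.

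Of the 6 broadly expressed MAGE genes, 0 were called lower and 1 was called higher, Magee1, where 11.1% of all tested genes were called higher, so that 1 gene of 6 is near the background. The median log2 fold change of the 6 was 0.24, beside 0.03 for all tested genes. Magee1 encodes a MAGE protein that binds dystrobrevin and had 15.2, 17.1 and 16.6 CPM in cKO testes, against 11.2, 11.7 and 11.2 CPM in Control testes. The Control libraries were nearly equal, and every cKO library was above them. The log2 fold change was 0.51, or 1.43-fold (SE 0.121, 95% interval 0.24 to 0.79, edgeR adjusted p = 0.0166). Its call ended without Control library 3 (0.51, edgeR adjusted p = 0.0608), without cKO library 2 (0.48, adjusted p = 0.0847) and without cKO library 3 (0.50, adjusted p = 0.0617).

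Maged1, also called NRAGE, which encodes a binding partner of the neurotrophin receptor NGFR, had 1890.4, 1994 and 1837 CPM in cKO testes, against 1744, 1706 and 1531 CPM in Control testes. Every cKO library was above every Control library. The groups did not overlap for 2 of the 6 broad genes, Maged1 and Magee1, which was true of 44.6% of all tested genes. The Maged1 difference of 0.20 on the log2 scale (SE 0.0973, 95% interval -0.02 to 0.42) missed the threshold, with an edgeR adjusted p of 0.159. Maged2, whose human counterpart is mutated in a transient antenatal form of Bartter syndrome, had 304, 328 and 321 CPM in cKO testes, against 355, 292 and 300.5 CPM in Control testes. The groups overlapped, with Control library 1 the highest of the 6 libraries. Its log2 fold change was 0.01 (95% interval -0.23 to 0.24, edgeR adjusted p = 0.965), and its sign turned under several scalings, to at most -0.06 with total-count scaling.

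Ndn, Magel2 and Mageh1 did not pass the threshold with all 6 libraries, and each had its highest Control level in library 1. The latter was true of 5 of the 6 broad genes and of 5920 of all 14424 tested genes. Ndn, or necdin, which restrains growth in neurons, had 113, 115 and 118 CPM in cKO testes, against 127, 87.2 and 98.9 CPM in Control testes. Mageh1, the smallest MAGE gene of the broad class by transcript length here, had 14.7, 14.4 and 15.1 CPM in cKO testes, against 15.9, 9.37 and 10.5 CPM in Control testes. For both genes Control library 1 was above all cKO libraries, and Control libraries 2 and 3 were below all of them. Magel2, whose human protein works with TRIM27 and USP7 in the recycling of membrane proteins, had only 31, 37 and 27 counts in cKO testes, against 43, 25 and 21 counts in Control testes, which limits its precision, and Control library 1 was again the highest.

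The log2 fold changes were 0.14 for Ndn (SE 0.135, edgeR adjusted p = 0.478), 0.31 for Mageh1 (SE 0.196, adjusted p = 0.277) and 0.27 for Magel2 (SE 0.302, adjusted p = 0.537). Without Control library 1 Ndn was at 0.28 (adjusted p = 0.0226) and Mageh1 at 0.55 (adjusted p = 0.0106), both past the threshold, and Magel2 at 0.56 (adjusted p = 0.183). The count of broad genes called higher was then 3 of 6, in a fit that called 16.6% of all tested genes higher. It was 0 without Control library 3, without cKO library 2 and without cKO library 3, where 4.74%, 3.12% and 4.76% of all tested genes were called higher (edgeR, adjusted p under 0.05). Without Control library 2 Ndn was at 0.02 (adjusted p = 0.926) and Mageh1 at 0.15 (adjusted p = 0.557), so the size of both differences rested on which Control libraries were used.

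Sums of Leydig and Sertoli cell markers were also highest among the Control libraries in library 1, though not every marker was. The 9 Leydig cell markers summed to 1112, 1070.4 and 1086 CPM in cKO testes, against 942, 506 and 475 CPM in Control libraries 1, 2 and 3. Of the 8 tested, 3 were called higher (median 0.88), where 11.1% of all tested genes were. In library 1, 7 of the 8 had their highest Control level. The exception was Prlr, the prolactin receptor gene and the called marker of smallest p, which had 74.2, 58.8 and 62.7 CPM in cKO testes, against 26.8, 38.4 and 35.4 CPM in Control testes (log2 fold change 0.96, edgeR adjusted p = 0.00318). Hsd17b3, placed on this list because its product makes testosterone, had 120.3, 127 and 137 CPM in cKO testes, against 88.3, 57.1 and 73.9 CPM in Control testes (0.81, adjusted p = 0.00649). In which cells of day 9 testes Hsd17b3 was transcribed was not measured, so its value need not reflect Leydig cells.

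The 16 Sertoli cell markers summed to 7632, 8012 and 7051 CPM in cKO testes, against 7356, 5429 and 5237 CPM in Control testes. Of these 6 were called higher, with a median of 0.30, where 11.1% of all tested genes were called higher. In library 1, 11 of the 16 had their highest Control level. The sum rested largely on Clu, with 3069, 3225 and 2649 CPM in cKO testes, against 3130, 2187 and 2101 CPM in Control testes, a gene named after its values were seen. Kitl, the ligand of the KIT receptor, ran otherwise, with 649, 646 and 589 CPM in cKO testes, against 378, 446 and 363 CPM in Control testes (0.67, edgeR adjusted p = 0.00382). Over all tested genes, 5920 of 14424 were highest among the Control libraries in library 1. The 5 erythroid genes summed to 435, 253 and 227 CPM in cKO testes, against 659, 270.4 and 166 CPM in Control testes, and 0 of them were called (edgeR, adjusted p under 0.05). The part of these cells in the Ndn, Mageh1 and Magel2 values was not tested.

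**Figure D3:**
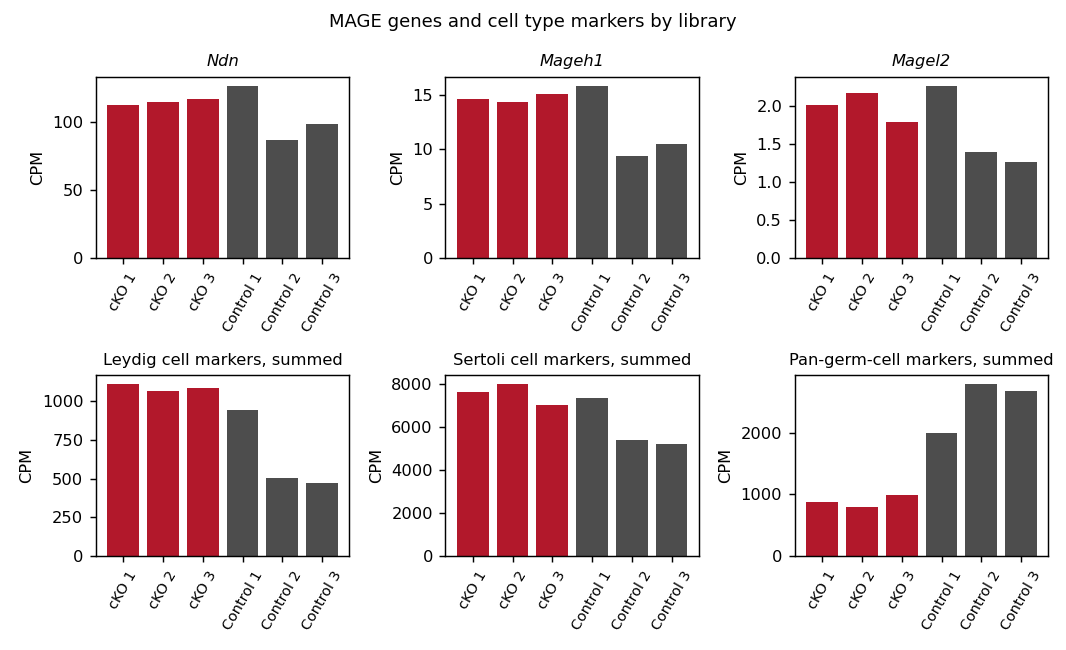
CPM in each library (cKO in red on the left, Control in grey on the right, vertical axes starting at 0) of Ndn, Mageh1 and Magel2 in the top row and of the summed Leydig cell, Sertoli cell and pan-germ-cell markers in the bottom row. Control library 1 is above Control libraries 2 and 3 in the first 5 panels and below them in the pan-germ-cell panel, where it has 1992 CPM.

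Sums for the remaining somatic cell types differed less between the Control libraries. Interstitial stroma markers summed to 7982, 7774 and 7915 CPM in cKO testes, against 5927, 4914 and 6134 CPM in Control testes, with 5 of 8 called higher. The endothelial markers summed to 306.5, 315 and 291 CPM in cKO testes, against 211, 209 and 239 CPM in Control testes, with 5 of 8 called higher. Macrophage markers (2 of 8 higher) summed to 123 to 143 CPM in cKO testes, against 88.9 to 107 CPM in Control testes. Peritubular myoid markers (1 of 8 higher) summed to 1658 to 1713 CPM in cKO testes, against 1585 to 1631 CPM in Control testes. Since 11.1% of all tested genes were called higher, 1 myoid marker of 8 is near the background. The median log2 fold changes were 0.45 for stroma, 0.46 for endothelial, 0.41 for macrophage and 0.04 for peritubular myoid markers. Those of Leydig and Sertoli cell markers were 0.88 and 0.30, and Magee1 was at 0.51. In which cells these MAGE transcripts arose was not measured, and the part of these cell types in the Magee1 difference was not tested.

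Levels can be compared between genes only per transcript length, for which the authors' FPKM values (fragments per kilobase of transcript, scaled to library depth) were used. Maged1 was the most abundant of the 9 at 660.3 ± 24.6 FPKM in cKO testes and 602 ± 38.5 FPKM in Control testes (SD, n = 3 each). It made up 72.6% to 74.7% of the summed FPKM of the 9 genes in cKO testes, against 65.8% to 69.4% in Control testes. Maged2 followed at 154 ± 8.95 FPKM in cKO testes and 157 ± 14.6 FPKM in Control testes. Next came Mageb4, at 28.8 ± 4.73 FPKM in cKO testes and 75.9 ± 8.63 FPKM in Control testes, and Ndn, at 30.4 ± 0.601 FPKM in cKO testes and 28.9 ± 6.01 FPKM in Control testes. Mageb4 was thus above Ndn in every Control library (67.0 to 84.3 FPKM for Mageb4 and 23.7 to 35.5 FPKM for Ndn), while in cKO testes the 2 genes overlapped (24.4 to 33.8 FPKM and 29.9 to 31.1 FPKM).

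The lower levels held 5 genes. Mageh1 had 10.2 ± 0.307 FPKM in cKO testes and 8.65 ± 2.62 FPKM in Control testes. Magea8 had 3.0 ± 0.225 FPKM in cKO testes and 7.53 ± 0.669 FPKM in Control testes, and Magea5 had 2.29 ± 0.427 FPKM in cKO testes and 5.68 ± 0.727 FPKM in Control testes. In Control testes the ranges of Mageh1 (6.66 to 11.6 FPKM) and Magea8 (7.04 to 8.29 FPKM) overlapped, so their order is not resolved there. Magee1 had 4.48 ± 0.248 FPKM in cKO testes, above Magea8 and Magea5, and 3.28 ± 0.0231 FPKM in Control testes, below both. Magel2 was the lowest of the 9, at 0.420 ± 0.0361 FPKM in cKO testes and 0.363 ± 0.127 FPKM in Control testes. The germline class made up 3.83%, 3.24% and 4.41% of the summed FPKM of the 9 genes in cKO testes, against 8.43%, 10.3% and 11.5% in Control testes.

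The separation of the 2 classes was also described within each library. The mean log2 CPM of the 3 germline genes minus that of the 6 broad genes was -2.35, -2.46 and -2.39 in cKO testes, against -1.26, -0.69 and -0.68 in Control testes. The groups did not overlap, and the cKO libraries lay closer together than the Control libraries, in which library 1 was the lowest. The germline mean differed by genotype (3.42 to 3.46 in cKO testes, against 4.57 to 4.79 in Control testes), while the broad mean overlapped (5.81 to 5.89 in cKO testes, against 5.46 to 5.83 in Control testes). No test of this difference was run, because the classes were chosen with earlier results known.

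Further MAGE genes were described from a list of the family. Of 24 further family names, 15 were in the table and 10 were tested, of which 3 were lower (30%) and 0 higher, with a median of -0.59. Of all tested genes 13.9% were lower and 11.1% higher, with a median of 0.03. The 3 lower family genes were MAGE-A genes. Magea10 had 1.95, 2.52 and 1.99 CPM in cKO testes, against 5.54, 7.19 and 4.87 CPM in Control testes (log2 fold change -1.44, SE 0.237, edgeR adjusted p = 0.0041). Magea6 was at -1.42 (SE 0.37, adjusted p = 0.0238) and Magea2 at -0.98 (SE 0.289, adjusted p = 0.037). Leaving out Control library 2 or 3 or any 1 cKO library ended the Magea2 call, at an adjusted p of 0.065 to 0.131, and leaving out cKO library 1 or 2 ended that of Magea6 (0.0922 and 0.0951). MAGE-A genes are known as near copies of one another, so their single values are uncertain.

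The 7 that did not pass were Mageb2 at -0.98 (edgeR adjusted p = 0.0793), Magea3 at -0.84 (adjusted p = 0.204), Mageb16 at -0.33 (adjusted p = 0.164), Mageb18 at 0.16 (adjusted p = 0.638), Magee2 at -0.06 (adjusted p = 0.881), Tro at -0.07 (adjusted p = 0.797) and Nsmce3 at 0.09 (adjusted p = 0.758). Nsmce3 is the MAGE subunit of the SMC5/6 complex, which acts in DNA repair in all cells, and Tro encodes trophinin. Mageb2 had 1.11, 2.82 and 3.32 CPM in cKO testes, against 3.75, 4.68 and 5.89 CPM in Control testes, so its groups did not overlap although it missed the threshold. The groups did not overlap for 4 of these 10 tested genes and for 44.6% of all tested genes. Magea4, Mageb1 and Mageb3 were too low to test, with 0 to 5 counts in each cKO library and 3 to 20 in each Control library. Magea1 and Mageb5 had 0 counts in all 6 libraries, which allows up to 3 counts in each.

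**Figure D4:**
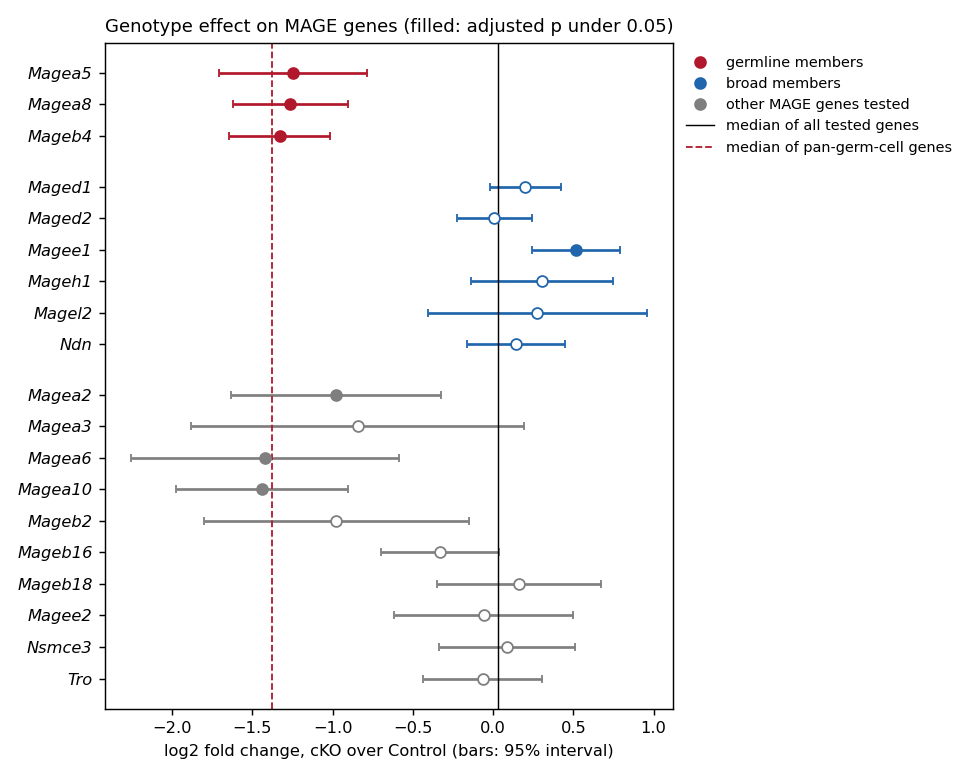
Log2 fold change of cKO over Control (horizontal axis, bars are 95% intervals) for the 3 germline (red), 6 broad (blue) and 10 other tested MAGE genes (grey), filled where the adjusted p was under 0.05, with the medians of all tested genes (0.03, solid line) and of the pan-germ-cell genes (-1.38, dashed line). The filled MAGE-A and MAGE-B genes lie around the dashed line. The broad genes lie to the right of the solid line, except Maged2 (0.01), which lies just left of it and whose sign turns under several scalings.

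Genes of proteins that work with MAGE proteins were called no more often than genes at large. Of 20 listed, 19 were tested, 2 were lower (10.5%) and 1 was higher (5.26%), with a median of -0.0048, where 13.9% of all tested genes were lower and 11.1% higher. Uncalled members are named here for their known role and after their values were seen. Trim28, the RING-type partner of human MAGE-A and MAGE-C proteins, was at -0.19 (edgeR adjusted p = 0.205), and the pair that works with MAGEL2, Trim27 and Usp7, was at -0.13 (adjusted p = 0.504) and -0.15 (adjusted p = 0.44). Pja1, whose product is a RING-type partner of MAGED1, was at 0.26 (adjusted p = 0.115), and the receptor gene Ngfr at 0.58 (adjusted p = 0.0597). The genes that fell were Rad18 and Nsmce1. Rad18, a ubiquitin ligase gene whose human product binds a MAGE-A protein, had 28.9, 25.9 and 29.0 CPM in cKO testes, against 33.7, 47.2 and 45.6 CPM in Control testes (log2 fold change -0.59, SE 0.138, edgeR adjusted p = 0.0159).

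Nsmce1, the RING subunit that pairs with the MAGE subunit of the SMC5/6 complex, had 20.7, 23.3 and 23.2 CPM in cKO testes, against 34.5, 26.0 and 31.4 CPM in Control testes (-0.45, SE 0.128, edgeR adjusted p = 0.0322). Dcaf12, another CRL4 substrate receptor, which in human cells marks MAGE-A proteins for degradation, had 125, 127 and 123 CPM in cKO testes, against 105, 105 and 93.1 CPM in Control testes (0.31, SE 0.0905, edgeR adjusted p = 0.037). Few of these calls withstood the loss of a library. Leaving out 1 library ended that of Dcaf12 in 4 of 6 cases, that of Nsmce1 in 4 and that of Rad18 in 3, and with total-count scaling Dcaf12 was at 0.24 (adjusted p = 0.0739).

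Position on the chromosome was also described. The 4 other listed genes that share the paternally expressed Prader-Willi domain with Ndn and Magel2 gave 3 tested genes, of which 0 were called (edgeR, adjusted p under 0.05). Mkrn3, a RING-type ligase gene, had 3.90, 4.52 and 4.18 CPM in cKO testes, against 4.59, 5.58 and 6.01 CPM in Control testes (-0.36, edgeR adjusted p = 0.201). Snrpn was at 0.22 (adjusted p = 0.297) and Peg12 at 0.06 (adjusted p = 0.913). Snrpn had 17.8 CPM in Control library 1, against 13.7 and 13.3 CPM in Control libraries 2 and 3. Like Ndn it was thus highest among the Control libraries in library 1, whereas Mkrn3 was lowest there. Peg12 had 4.48, 2.12 and 5.35 CPM in Control libraries 1, 2 and 3, so it was highest in library 3. Of the 3 tested genes, 1 was thus highest in Control library 1, as were 5920 of all 14424 tested genes. The other 7 MAGE genes lie on the X chromosome. Of the 579 other tested X-linked genes, 18.7% were lower and 15% higher, with a median log2 fold change of 0.14.

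Genes with the most similar profile over the 6 libraries were named by Pearson's r on log2 CPM among 12595 tested genes (12596 for Magel2), as a description, since the libraries form 2 genotype groups that many genes follow. For Mageb4 these were Pramef12, Ampd2 and Tktl1 (each with r = 0.999), and 772 genes had an r over 0.95. Pramef12 and Tktl1 were themselves lower, at -1.52 and -1.53 (edgeR adjusted p = 0.000604 and 0.000936). Ampd2 was lower by less, at -0.37 (adjusted p = 0.017), and Sec61a1, the gene nearest to Magea5, was at -0.15 (adjusted p = 0.201). A high r thus did not mean a change of similar size. For Magea8 they were Ddx24, Chmp7 and Slc16a10 (r of 0.997 to 0.998), and for Magea5 Sec61a1, Pisd and Ell (0.994 to 0.996). In the broad class they were Sytl4, Srr and Usp16 for Maged1 (0.995 to 0.999), Myg1, Atp5c1 and Atp5j for Maged2 (0.990 to 0.994) and Gpm6b, Chtf8 and Mthfd1l for Magee1 (0.997 to 0.998). They were Mfap4, Bmyc and Cnpy2 for Ndn (0.996 to 0.997), Stx1a, Ube2a and Dtx3 for Mageh1 (0.998 to 0.999), and Bcat2, Neil1 and Txndc12 for Magel2 (0.994 to 0.996).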

How the data were processed

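Messenger RNA of whole mouse testes was sequenced in 3 cKO and 3 Control libraries. Each library has 2 columns in the table deposited by the authors, an estimated count and an FPKM. StringTie 1.3.1 and RSEM are listed, with no role, in the submitters' processing notes. Aligner, genome build, annotation and strand use: not given in the sources used here. The deposited counts are whole numbers and were treated as rounded estimated counts, because an FPKM above 0 stood beside a count of 0 for 3 to 21 genes in each library. FPKM values deposited by the authors served only to compare levels between genes.

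Genes were named by Ensembl ID with the supplied reference table (55 of 22274 had no symbol), because the deposited symbols give several MAGE genes 1 name. filterByExpr of edgeR 4.0.16 (minimum count 10) kept 14424 genes, with TMM scaling. The genotypes were compared by edgeR's quasi-likelihood test (R 4.3.3) and Benjamini-Hochberg adjustment at 0.05. Log2 fold changes are cKO over Control; SE is the fold change divided by the square root of F. The procedure was tested on simulated data. Alternatives were DESeq2 1.42.0, limma-voom (limma 3.58.1), other scalings and filters, a replicate block and each library left out in turn. Named genes are every member, the called genes of the MAGE family, partner and Prader-Willi lists, the 3 genes of highest r per member and, beside a result, marker genes of smallest p; others are said to be chosen after their values were seen. The members and lists were chosen with earlier results of these data known. Promoter windows are RefSeq's (GRCm38.p6), and shared stretches come from GENCODE M21 transcripts on the sense strand. The floor for a count of 0 covers counting error only.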

Additional observations from a re-analysis of the deposited data

How the results depend on the processing

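The germline calls held in all 3 genes under every alternative except scaling to the pan-germ-cell genes, where 0 were called, and Mageb4, Magea8 and Magea5 turned to 0.079, 0.15 and 0.18. Under that scaling 13419 genes changed, all 6 broad genes were called higher, and Magea2, Rad18, Nsmce1 and Dtl turned to 0.43, 0.84, 0.94 and 1.12, against a median of all genes of 1.43. With libraries left out in turn, Magea5 relative to the pan-germ-cell genes was at -0.042 to 0.36 and not called (chosen after seeing the data). Maged2 turned to -0.0085 with DESeq2 and with RLE scaling, -0.023 with upper-quartile scaling, -0.060 with total-count scaling and -0.00058 with no filter, and was at -0.057 to 0.075 with 1 library left out; the cause was not tested. With 1 library left out, 1371 to 5247 genes changed, against 3607 with all libraries, and 0 to 3 broad genes were called; the cause was not tested. Leaving out Control library 1, 2 or 3 gave 5247, 4301 and 1800 changed genes, and leaving out cKO library 1, 2 or 3 gave 1473, 1371 and 1980.

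The labels number libraries 1 to 3 in both groups, but same-numbered libraries did not deviate together (r = -0.07, -0.08 and 0.07), so they were not taken as pairs. With the replicate block 2822 genes changed against 3607 without it, and all 3 germline genes and Magee1 were still called, while Magea2, Magea6, Nsmce1 and Dcaf12 were not. Magel2, at 21 to 43 counts, is the member that depth limits most; its 95% interval ran from -0.41 to 0.96.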

Other observations

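The deposited table gives MAGE symbols to several genes that the reference names differently, and these were singled out after their values were seen. Gm44, deposited as MAGEB3, had 34, 30 and 24 counts in cKO testes, against 98, 121 and 135 counts in Control testes (log2 fold change -1.84, SE 0.249, edgeR adjusted p = 0.00203). Gm5072 and Gm8914 had identical counts in every library (6, 7 and 6 in cKO testes, against 15, 20 and 24 in Control testes), so they carry 1 measurement, at -1.45 (adjusted p = 0.0249). The most abundant of these genes did not pass. 4933402E13Rik had 1385, 1611 and 1308 counts in cKO testes, against 2100, 1869 and 1654 counts in Control testes (-0.21, adjusted p = 0.115), and 4930550L24Rik had 2023, 2497 and 1848 counts in cKO testes, against 2521, 1904 and 1714 counts in Control testes (0.23, adjusted p = 0.201).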
